A study of Rattus norvegicus with 12 samples.

Results

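The genes described here encode the proteasome. They were chosen by name: a probe was a member when its gene symbol on the array platform began with Psma, Psmb, Psmc, Psmd or Psme followed by a number. The rule found 42 of 21946 probes, for 41 genes, Psmb10 having 2 probes. They comprise 7 probes of the alpha ring, 4 of beta-ring subunits without catalytic activity, 3 of the constitutive catalytic subunits, 5 of the inducible catalytic subunits and the thymic subunit Psmb11, 6 of the ATPase ring, 3 of other base subunits, 8 of the lid, 2 of chaperones that assemble the base and 3 of activators. The remaining probe, for Psmc3ip, matched by name only: this gene encodes a factor of meiotic recombination and no proteasome subunit. Psma7, Psmd10 and Psme3 had no named probe and were not analysed here.

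The proteasome degrades proteins tagged with ubiquitin. Its core is a barrel of stacked rings, in which alpha subunits form the gate and 3 kinds of beta subunit carry the proteolytic sites, and its regulatory particle recognises, unfolds and feeds in the substrate through a base with an ATPase ring and a lid. Interferon replaces the catalytic subunits Psmb6, Psmb7 and Psmb5 by Psmb9, Psmb10 and Psmb8, which gives the immunoproteasome, and raises the PA28 activator subunits Psme1 and Psme2. The peptides made in this way are loaded on MHC class I molecules.

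Total RNA was measured on 12 Illumina rat expression arrays of 1 chip. Exosomes, the small vesicles cells release, came from ASML, a metastasizing rat pancreatic adenocarcinoma line (3 arrays, wt exosomes), or from ASML cells with a CD44v knockdown (3 arrays, kd exosomes). The cells were B12, a rat lymph node stroma line, left untreated (2 arrays) or treated for 24 h with wt exosomes (2 arrays) or kd exosomes (2 arrays). The labels do not say whether replicates came from separate cultures, so that p-values measure only the spread between these arrays, which may be technical. RNA of the ASML cells themselves was not analysed here, and whether a difference between exosomes and B12 cells belongs to the vesicle or to the cell line cannot be told apart.

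The mean signal above background was 108 to 173 on the wt exosome arrays, 299, 244 and 100.1 on kd exosome arrays 1, 2 and 3, while B12 arrays ranged from 505 to 588. The knockdown was checked on Cd44. Which exons its 1 probe covers is not stated with the array annotation. Its signal was 42.9% to 59.6% of the array mean on wt exosome arrays and 17.3% to 19.4% on kd exosome arrays. Kd array 3 stood apart from kd arrays 1 and 2: its Pearson correlation over the tested probes was 0.901 and 0.892 with kd arrays 1 and 2, and 0.963 to 0.977 with the wt arrays, whereas kd arrays 1 and 2 had 0.986. Among the epithelial markers, Epcam was detected on all 6 exosome arrays and on none of the 6 B12 arrays, on which 4 to 7 of 9 epithelial marker probes were nevertheless detected. Of the 9 stromal marker probes, 7 were detected on each B12 array, but Thy1 on none and Pdpn on only 2 of the 6, and Ptprc and Cd3e, which mark leukocytes, were detected on no array. On the exosome arrays 1 to 2 of 4 leukocyte probes were detected.

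Proteasome messages were readily measured in exosome RNA. Of the 42 probes, 35 were detected on all 12 arrays and every array detected 35 to 40 of them. The other 7 were Psmb9 (11 arrays), Psmc3ip (9), Psma3 (8), Psmd14 (4), Psmc6 (3), Psma8 (1) and Psmb11 (1). Psma8 and Psmb11 encode subunits known from testis and thymus. The members together made up 0.951%, 1.08% and 0.994% of all signal above background in wt exosomes, 1.42%, 1.51% and 0.918% in kd exosomes, and 0.914% to 1.07% in B12 cells. Kd arrays 1 and 2 were above every other array in this share, and kd array 3 was within the range of the rest.

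Each exosome group was compared with untreated B12 cells to see which messages the vesicles held at higher or lower relative level than the cells. Values are log2 signals after background correction and quantile normalization of all 12 arrays, and each of 12231 probes was tested with limma (Benjamini-Hochberg adjusted p under 0.05). Quantile normalization gives every array the same distribution, so that higher and lower mean relative to the other RNA of that array. In bulk RNA, fewer cells of a type and less RNA per cell cannot be told apart. Both comparisons share the untreated arrays. Psma8, Psmb11 and Psmc6 were detected on all arrays of no group and were not tested, which left 39 member probes. Psmb9, Psma3, Psmd14 and Psmc3ip were tested without being detected on every array.

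In wt exosomes, 13 of the 39 probes were higher than in untreated B12 cells and 1 was lower, while 18.2% of all tested probes were higher and 17.1% lower. In kd exosomes, 11 were higher and 2 lower, against 10.8% and 13.4% of all probes. The median log2 difference of the 39 probes was 0.35 in wt and 0.39 in kd exosomes, that of all tested probes 0.05 and 0.11. Of the called probes 12 were called in both comparisons. Groups did not overlap for 21 probes that were higher and 6 that were lower in wt exosomes, against 35% and 31.8% of all probes, and for 18 and 3 in kd exosomes, against 27.3% and 24.4%. Most of these directions depend on how arrays are scaled, as given further on: all the higher calls but that of Psmb8 turned below 0 when arrays were scaled by their median.

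Markers of other cells moved with the same comparisons. Of 4 erythroid and platelet probes, 3 to 4 were detected on each wt and 2 to 3 on each kd exosome array and 0 on the untreated arrays, and their summed signal was 0.0189% to 0.0840%, 0.00152% to 0.189% and at most 0.00012% of all signal. Pf4, a platelet chemokine gene, was at least 50.6-fold higher in wt exosomes (limma adjusted p = 0.00402) and at least 10.6-fold in kd exosomes (limma adjusted p = 0.0458). The haemoglobin gene Hbb was at least 34.4-fold higher in wt exosomes (limma adjusted p = 0.0168), and its limma adjusted p in kd exosomes was 0.0670. Of 8 epithelial markers tested, Epcam, Esrp1 and Krt7 were higher in both exosome groups and the other 5 did not pass, among which Cdh1 (−1.78 and −2.05) and Tspan8 (−1.44 and −2.23) had values below 0. The leukocyte marker Itgam was higher in wt exosomes (1.06, limma adjusted p = 0.0369) and did not pass in kd exosomes (0.41, limma adjusted p = 0.408). Pf4, Hbb, Epcam, Esrp1 and Itgam entered the test only through exosome groups, where they are high. Their direction was favoured from the start, and nothing is read from their calls. The part of the cells behind these markers in the members' differences was not tested.

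**Figure D1:**
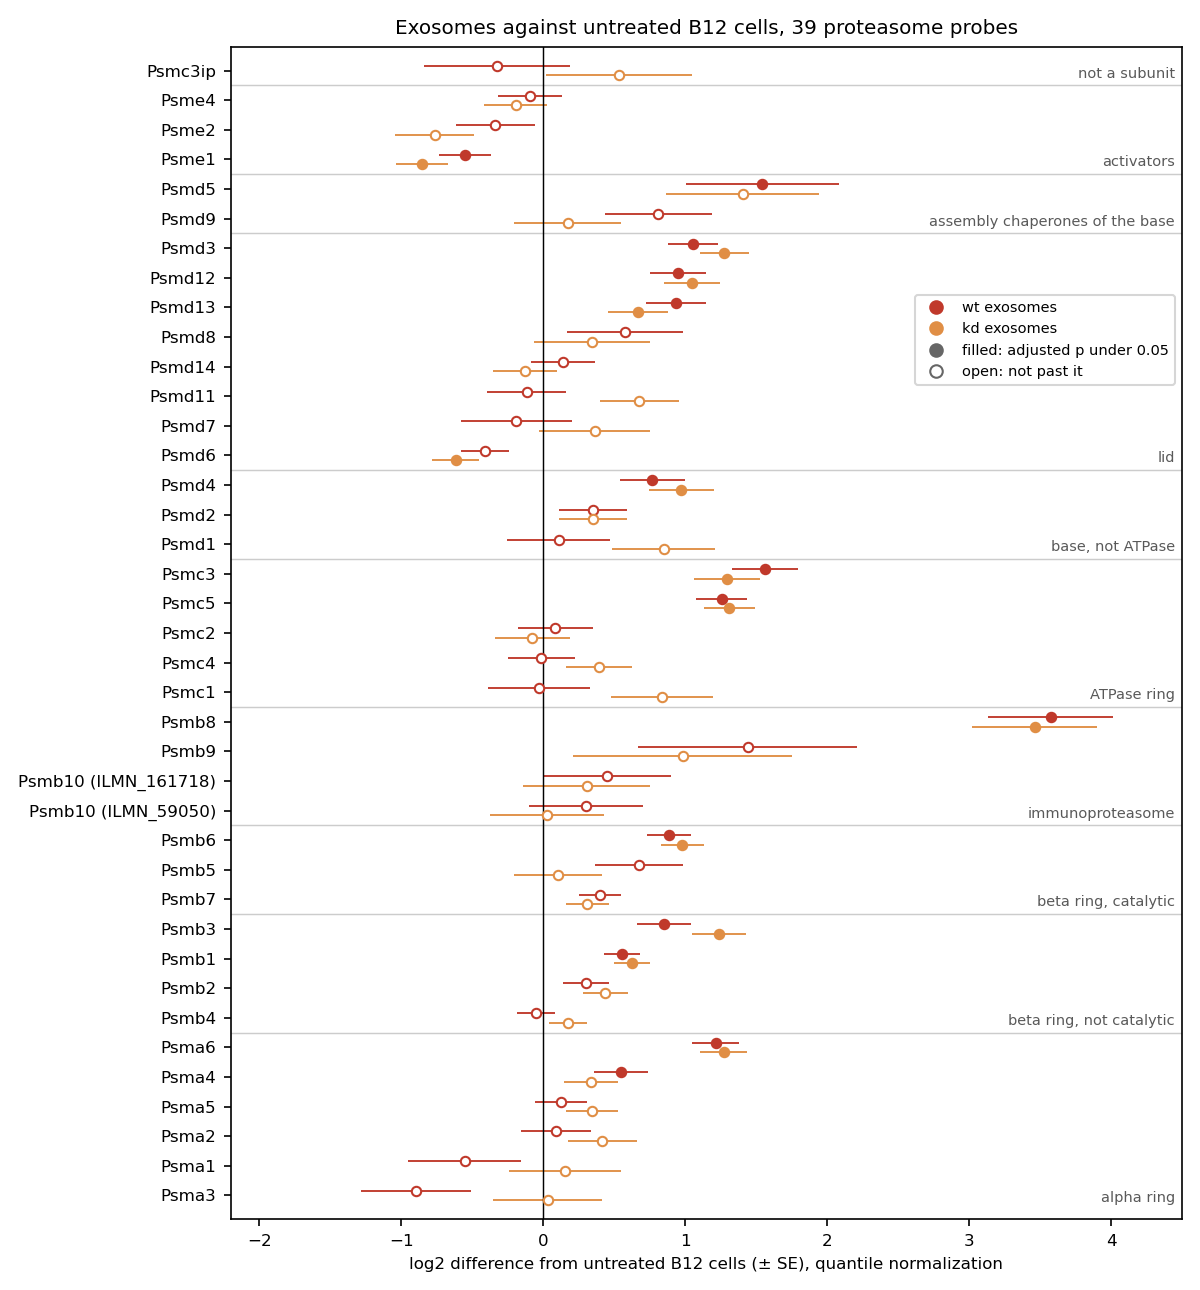
The log2 difference from untreated B12 cells (x axis, with its SE) is drawn for 39 probes grouped by the part of the proteasome they belong to, in wt exosomes (red) and kd exosomes (orange); filled points have an adjusted p under 0.05. Psmb8 lies near 3.5 in both, Psme1 below 0 in both, and each filled point above 0 other than Psmb8 turned below 0 under median scaling.

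The inducible catalytic subunit Psmb8, which replaces Psmb5 in the immunoproteasome, had the largest difference of any member in both comparisons. Its log2 signal was 11.14, 11.24 and 11.30 in wt exosomes, 11.05, 11.10 and 11.19 in kd exosomes, and 7.21 and 8.09 in untreated B12 cells. The B12 arrays treated with wt exosomes read 6.83 and 8.15, those treated with kd exosomes 6.86 and 8.18. All 6 exosome arrays thus lay above all 6 B12 arrays, and the exosome arrays were far closer to each other than the B12 arrays were. Against untreated cells Psmb8 was 11.9-fold higher in wt exosomes (3.57 ± 0.44, log2 difference ± SE; limma adjusted p = 0.000272) and 11.0-fold higher in kd exosomes (3.46 ± 0.44; limma adjusted p = 0.000341). In wt exosomes this difference was at the 98.5 percentile of all tested probes, in kd exosomes at the 99.3 percentile. It stayed above 0 in each of the 24 alternatives run per comparison and past the threshold in 23; under median scaling it was 1.45 in wt (limma adjusted p = 0.107) and 2.02 in kd exosomes (limma adjusted p = 0.0528). Divided by the array mean, also a scaling, the Psmb8 signal was 564% to 689% in wt and 569% to 788% in kd exosomes. In B12 cells it was 37.0% to 109%. The unscaled signals above background overlapped, at 569 to 2207 on exosome arrays and 194 to 638 on B12 arrays.

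The other inducible subunits did not pass the test. Psmb9, the partner that replaces Psmb6, read 7.93, 7.54 and 6.74 in wt exosomes, 7.78, 7.97 and 5.08 in kd exosomes and 5.91 and 6.01 in untreated B12 cells. The last kd value, on kd array 3, was not detected. The wt exosome arrays lay above the untreated cells, but the difference of 1.44 ± 0.77 had a limma adjusted p of 0.164, and that of 0.98 ± 0.77 in kd exosomes 0.372. Psmb10, which replaces Psmb7, was measured by 2 probes that differed by 0.45 ± 0.45 and 0.30 ± 0.40 in wt exosomes and by 0.31 ± 0.45 and 0.03 ± 0.40 in kd exosomes (limma adjusted p = 0.441 to 0.968). So of the 3 inducible catalytic subunits, Psmb8 alone passed the threshold in these fits; the differences between the 3 genes were not tested.

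**Figure D2:**
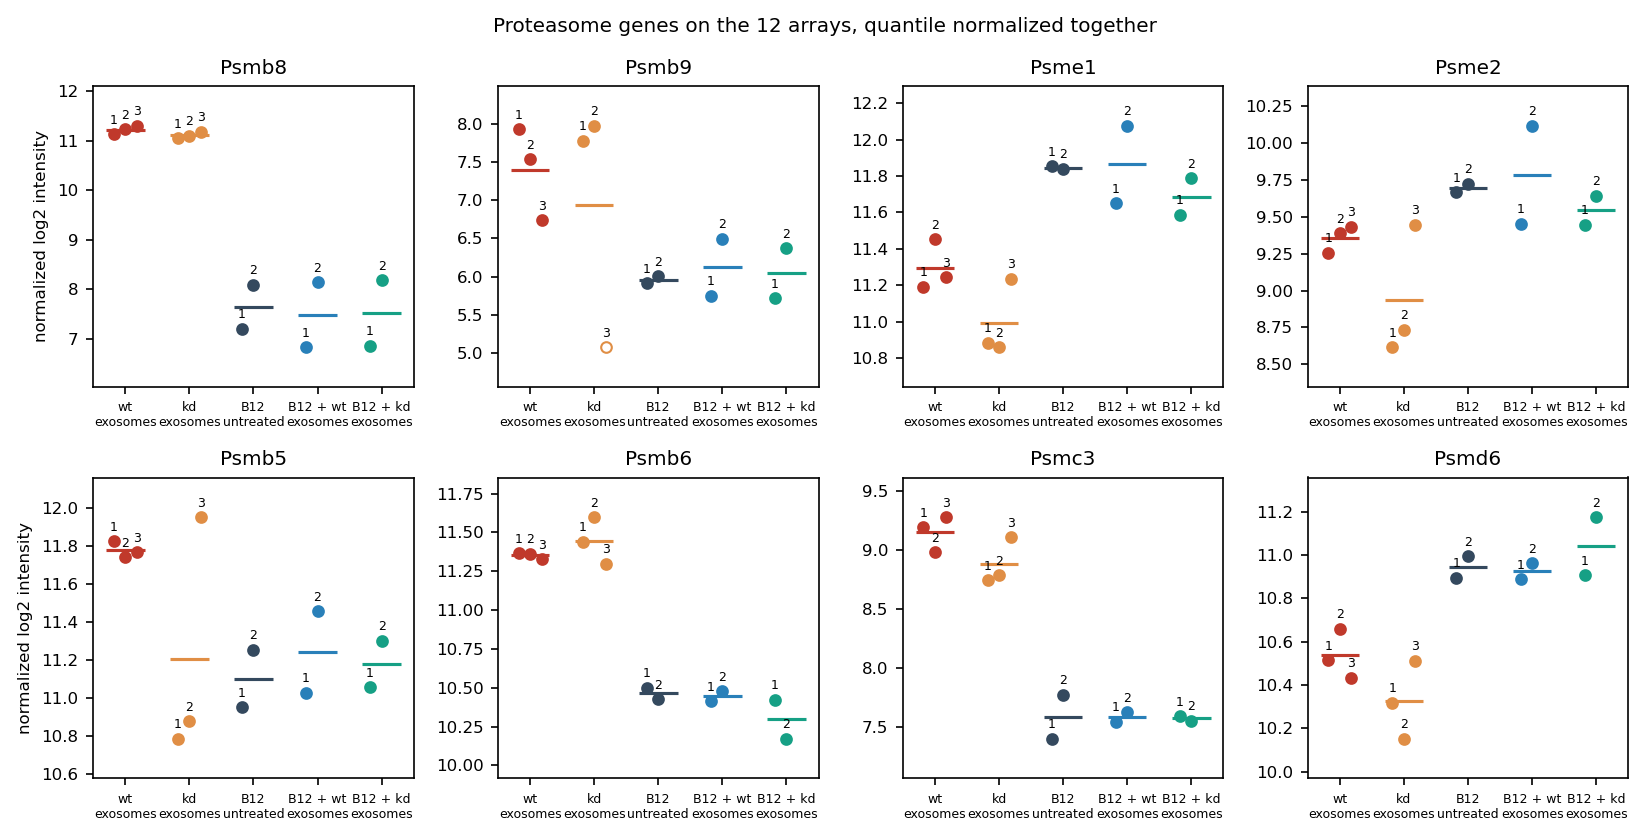
The log2 signal (y axis, quantile normalization over 12 arrays) is shown for 8 members, with 1 point per array, its replicate number, a bar at the group mean, and an open point where the probe was not detected. Psmb8 is high in all 6 exosome arrays and splits by replicate number in B12 cells, Psme1 and Psmd6 are lower in exosomes, and Psmb6 and Psmc3, higher here, fell below the cells under median scaling.

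Psmb8, the other inducible subunits, the activator Psme2 and the constitutive Psmb5 share a known interferon response or a place in the same ring. Of these genes Psmb8 alone passed the threshold in the comparisons of exosomes with untreated cells. Psme1, also raised by interferon, passed as lower in both comparisons (−0.55 and −0.85), and its promoter is not printed. The promoters of the other genes named here are shown. They are RefSeq sequences of the rat build GRCr8, 250 bases before to 50 after the annotated start, of which the table held 37 of the 41 member genes. Psmb8 is at chr20:4656982-4657281 (minus strand), Psmb9 at chr20:4668750-4669049 (plus), Psmb10 at chr19:50743243-50743542 (minus), Psme2 at chr15:33052702-33053001 (minus) and Psmb5 at chr15:32047330-32047629 (minus). Capitals mark matches, on either strand, to GAAANNGAAA, the core of the interferon-stimulated response element, or in Psmb5 to TGACNNNGC, the core of the antioxidant response element.
Psmb8: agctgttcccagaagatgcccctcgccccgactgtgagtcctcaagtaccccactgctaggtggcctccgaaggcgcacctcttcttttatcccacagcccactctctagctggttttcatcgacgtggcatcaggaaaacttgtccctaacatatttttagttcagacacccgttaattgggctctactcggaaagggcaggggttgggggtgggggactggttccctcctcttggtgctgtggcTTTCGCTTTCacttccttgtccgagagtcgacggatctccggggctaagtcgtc
Psmb9: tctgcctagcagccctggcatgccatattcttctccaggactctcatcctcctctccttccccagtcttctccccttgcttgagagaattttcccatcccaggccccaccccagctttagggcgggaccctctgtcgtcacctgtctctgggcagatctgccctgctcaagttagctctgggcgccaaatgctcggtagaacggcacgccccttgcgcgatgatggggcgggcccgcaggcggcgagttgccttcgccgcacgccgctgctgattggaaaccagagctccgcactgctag
Psmb10: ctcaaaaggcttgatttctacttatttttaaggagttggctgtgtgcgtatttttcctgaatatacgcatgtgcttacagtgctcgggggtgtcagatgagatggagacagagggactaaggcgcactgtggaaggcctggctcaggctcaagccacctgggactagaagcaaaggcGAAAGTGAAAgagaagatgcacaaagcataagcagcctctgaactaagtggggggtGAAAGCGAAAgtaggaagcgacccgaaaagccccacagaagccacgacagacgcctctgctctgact
Psme2: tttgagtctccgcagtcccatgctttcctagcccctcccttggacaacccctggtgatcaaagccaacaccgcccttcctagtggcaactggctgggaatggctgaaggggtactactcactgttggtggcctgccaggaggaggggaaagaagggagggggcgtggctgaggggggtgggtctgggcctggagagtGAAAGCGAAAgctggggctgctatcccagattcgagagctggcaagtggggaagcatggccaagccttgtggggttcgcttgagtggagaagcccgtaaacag
Psmb5: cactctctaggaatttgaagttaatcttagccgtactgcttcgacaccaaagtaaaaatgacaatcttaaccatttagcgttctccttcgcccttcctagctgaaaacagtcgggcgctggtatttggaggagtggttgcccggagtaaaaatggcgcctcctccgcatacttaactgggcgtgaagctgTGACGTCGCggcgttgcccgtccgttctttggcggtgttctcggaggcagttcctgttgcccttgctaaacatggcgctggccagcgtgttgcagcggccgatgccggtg
GAAANNGAAA was found in 6 of the 37 member promoters (16.2%) and in 3.77% of 27457 promoters in the table. The 6 were those of Psmb8, where the match is on the opposite strand, Psmb10, which has 2 matches, Psme2, Psma4, Psmb3 and Psmd7. TGACNNNGC was found in 8 member promoters (21.6%) and in 12.2% of all, the 8 being those of Psma3, Psmb2, Psmb5, Psmb6, Psmd1, Psmd3, Psmd9 and Psme4. Psmb8 and Psme2 both hold the first motif, and their log2 differences in wt exosomes were 3.57 and −0.34. Psmb9 and Psme1 hold neither motif in this window. A match describes the letters of this window and is not a binding site.

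The constitutive catalytic subunits differed less than Psmb8. Psmb6, which carries the caspase-like site, read 11.37, 11.36 and 11.33 in wt exosomes, 11.44, 11.60 and 11.30 in kd exosomes and 10.50 and 10.43 in untreated cells. It did not overlap between exosomes and untreated cells, and was 0.89 ± 0.15 higher in wt (limma adjusted p = 0.00180) and 0.98 ± 0.15 higher in kd exosomes (limma adjusted p = 0.00114), but −1.25 and −0.48 under median scaling. Psmb7, with the trypsin-like site, differed by 0.40 ± 0.15 and 0.31 ± 0.15 (limma adjusted p = 0.0603 and 0.155). Psmb5, with the chymotrypsin-like site, read 11.82, 11.74 and 11.77 in wt exosomes, 10.79, 10.88 and 11.95 in kd exosomes, and 10.95 and 11.25 in untreated cells. Its kd arrays 1 and 2 were below both untreated arrays and kd array 3 above them, and neither difference passed the test (0.68 ± 0.31 in wt, limma adjusted p = 0.109; 0.10 ± 0.31 in kd, limma adjusted p = 0.828).

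A difference in the log2 ratio of the inducible to the constitutive subunit on the same array does not depend on the scaling between arrays. Log2 of Psmb8 over Psmb5, computed from the signals above background, was −0.89, −0.62 and −0.55 in wt exosomes, 0.23, 0.25 and −0.92 in kd exosomes, −3.85 and −3.10 in untreated B12 cells, −4.33 and −3.27 in B12 cells with wt exosomes and −4.42 and −3.18 in B12 cells with kd exosomes. For this pair every exosome array was above every B12 array. The other inducible pairs overlapped between exosome and B12 arrays. Log2 of Psmb9 over Psmb6 was −4.86 to −3.75 in wt exosomes and −5.30 to −5.09 in untreated cells. It was −3.81 and −3.99 on kd arrays 1 and 2, and −5.65 and −4.36 in B12 cells with kd exosomes. With 1 probe, log2 of Psmb10 over Psmb7 was −0.74 to −0.56 in wt exosomes and −0.58 to −0.35 in untreated cells. With the other it was −1.69 to −1.48 and −1.67 to −1.31. Each ratio compares 2 probes, so its level does not give the proportion of the transcripts, and only its difference between groups can be read.

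Among the activators Psme1 alone passed, on the lower side. Psme1, a PA28 subunit that opens the core gate, read 11.19, 11.45 and 11.24 in wt exosomes, 10.88, 10.86 and 11.24 in kd exosomes and 11.85 and 11.84 in untreated cells. Both exosome groups were below the untreated cells without overlap, by −0.55 ± 0.18 in wt (limma adjusted p = 0.0387) and −0.85 ± 0.18 in kd exosomes (limma adjusted p = 0.00688). The difference was below 0 in all 24 alternatives of each comparison, and past the threshold in 18 of them in wt and 24 in kd exosomes. Psme2, the other PA28 subunit, read 9.26, 9.39 and 9.43 in wt exosomes, 8.62, 8.73 and 9.45 in kd exosomes and 9.67 and 9.72 in untreated cells. It too was below the cells on all 6 exosome arrays, but at −0.34 ± 0.28 (limma adjusted p = 0.356) and −0.76 ± 0.28 (limma adjusted p = 0.0711) it did not pass the test. Psme4, the single-chain PA200 activator, differed by −0.09 ± 0.22 and −0.19 ± 0.22 (limma adjusted p = 0.762 and 0.547). On the same array, log2 of Psme1 over Psmb1 was −2.23 to −1.78 on 6 exosome arrays and −0.78 to −0.09 on 6 B12 arrays. That of Psme2 over Psmb1 was −4.43 to −4.04 against −2.78 to −1.90, and neither ratio overlapped. Psmb1 was itself called higher in both exosome groups (0.55 and 0.63), so these ratios do not describe the activators alone.

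The alpha ring and the non-catalytic beta subunits build the barrel. Of 6 alpha probes tested, 2 were higher in wt exosomes and 1 in kd exosomes. Psma6 read 11.81, 11.87 and 11.83 in wt exosomes, 12.10, 11.91 and 11.68 in kd exosomes and 10.54 and 10.71 in untreated cells, a difference of 1.21 ± 0.17 (limma adjusted p = 0.000488) and 1.27 ± 0.17 (limma adjusted p = 0.000399). Psma4 was 0.55 ± 0.19 higher in wt exosomes (limma adjusted p = 0.0444) and did not pass in kd exosomes (0.34 ± 0.19, limma adjusted p = 0.215). The alpha subunit gene Psma3 was detected on none of 3 wt exosome arrays and on both untreated arrays. This puts it at least 1.45-fold lower in wt exosomes, with a limma adjusted p of 0.0932. Psma3 entered the test only through B12 groups, which detected it on every array, so that nothing is read from this difference. Among the non-catalytic beta subunits, Psmb3 was higher by 0.85 ± 0.19 and 1.24 ± 0.19 (limma adjusted p = 0.00786 and 0.00115) and Psmb1 by 0.55 ± 0.13 and 0.63 ± 0.13 (limma adjusted p = 0.00821 and 0.00500). Psmb2 and Psmb4 did not pass. Under median scaling Psma6, Psma4, Psmb3 and Psmb1 turned below 0 in wt exosomes (−0.81, −1.54, −1.10 and −0.93).

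In the ATPase ring, which unfolds substrates, 2 of 5 tested probes were higher in both exosome groups. Psmc3 read 9.19, 8.98 and 9.28 in wt exosomes, 8.74, 8.78 and 9.11 in kd exosomes and 7.40 and 7.77 in untreated cells, a difference of 1.56 ± 0.23 and 1.29 ± 0.23 (limma adjusted p = 0.000795 and 0.00273). Psmc5 differed by 1.26 ± 0.18 and 1.31 ± 0.18 (limma adjusted p = 0.000604 and 0.000512). Psmc1, Psmc2 and Psmc4 did not pass in either comparison. In median-scaled data Psmc3 was −0.69 and −0.25 and Psmc5 −1.06 and −0.25, in wt and kd exosomes.

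Psmd4, the ubiquitin receptor of the base, was higher by 0.77 ± 0.23 in wt (limma adjusted p = 0.0251) and 0.97 ± 0.23 in kd exosomes (limma adjusted p = 0.0108), while the scaffold subunits Psmd1 and Psmd2 did not pass. In the lid, which surrounds the deubiquitinase, 3 of 8 probes were higher in both groups. Psmd3 read 12.02, 11.75 and 11.90 in wt exosomes, 12.03, 12.33 and 11.97 in kd exosomes and 10.94 and 10.73 in untreated cells, which gave 1.05 ± 0.18 and 1.28 ± 0.18 (limma adjusted p = 0.00146 and 0.000530). Psmd12 (0.95 and 1.05) and Psmd13 (0.94 and 0.67) were the other members called higher. Psmd6 differed in the opposite direction, with 10.51, 10.66 and 10.43 in wt exosomes, 10.32, 10.15 and 10.51 in kd exosomes and 10.89 and 10.99 in untreated cells. Its difference was −0.62 ± 0.17 in kd exosomes (limma adjusted p = 0.0222) and −0.41 ± 0.17 in wt exosomes (limma adjusted p = 0.0813), and below 0 in all 24 alternatives of the kd comparison, 18 of them past the threshold. Psmd14, the deubiquitinase, was detected on 2 of 3 wt exosome arrays, on no kd exosome array and on no untreated array, and gave no call: the wt exosome arrays read 5.08, 4.27 and 4.77 and the untreated arrays 4.66 and 4.47, which overlap (limma adjusted p = 0.641).

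Of the chaperones that assemble the base, Psmd5 was higher in wt exosomes by 1.54 ± 0.54 (limma adjusted p = 0.0462), with 7.73, 7.86 and 7.44 against 5.37 and 6.89, and did not pass in kd exosomes (1.40 ± 0.54, limma adjusted p = 0.0831). The untreated arrays are farther apart from each other for Psmd5 than for most members. Psmd9 differed by 0.81 ± 0.38 and 0.17 ± 0.38 (limma adjusted p = 0.115 and 0.763). The higher values of Psmd4, Psmd3, Psmd12, Psmd13 and Psmd5 in wt exosomes turned to −1.42, −0.94, −1.25, −1.37 and −0.22 under median scaling.

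How many members were called, and in which direction, rested on the scaling. The share of probes detected was 42.8% to 46.3% on wt exosome arrays and 52.2%, 47.0% and 42.8% on kd arrays 1, 2 and 3. On B12 arrays it was 53.2% to 54.3%. The part of these shares in the effect of median scaling was not tested. Median scaling moved the median of all probes to −1.18 in wt and −0.73 in kd exosomes. With it 0 members were higher and 23 lower in wt exosomes, while 51.4% of all probes were called, and 0 higher and 6 lower in kd exosomes, with 30.9% of all called. The members' median was then −1.51 in wt and −0.81 in kd exosomes. Division by the mean signal of each array, a scaling chosen after seeing the data, gave 5 higher and 3 lower in each comparison, with 39.1% and 22.4% of all probes called. Psmb8, Psmb1, Psma6 and Psmd3 were higher in both under that scaling, and Psme1 (−0.95 and −1.04) and Psme2 (−1.11 and −1.28) lower in both. Cyclic loess, the authors' deposited values, no background correction and an offset of 50 gave 10 to 13 higher and 1 to 3 lower in wt exosomes, and 9 to 11 higher and 2 to 3 lower in kd exosomes. Single arrays mattered too: without untreated array 1 the count in wt exosomes was 7 (19.1% of all probes), the lone untreated array then being assumed to vary like the other groups, and without kd array 3 it was 20 in wt (47.4%) and 20 in kd exosomes (30.7%). Array weights gave 22 in kd exosomes (33.7%).

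**Figure D3:**
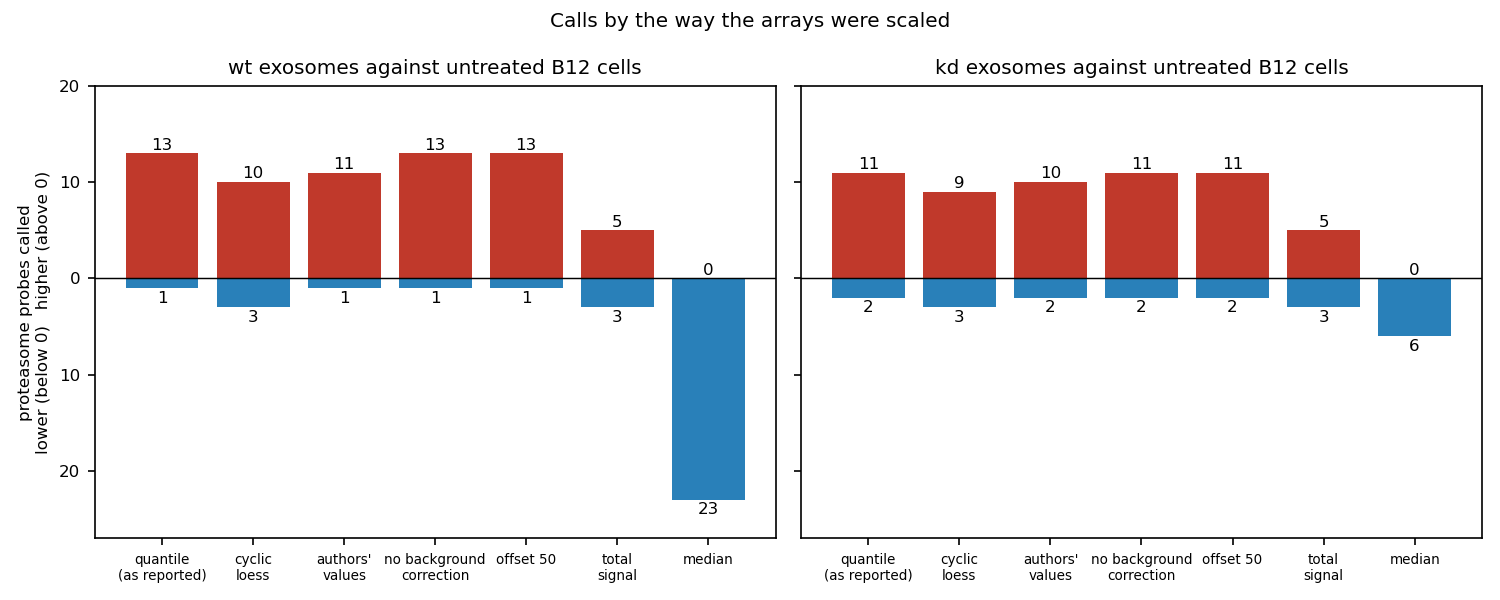
The number of member probes called higher (bars above 0) and lower (bars below 0) than in untreated B12 cells is shown for 7 ways of scaling the arrays, for wt and kd exosomes. Quantile normalization gave 13 higher and 1 lower in wt exosomes, scaling by the array mean 5 and 3, and scaling by the median 0 and 23.

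Genes that work with the proteasome were described in the same comparisons. Of 7 tested genes of the class I peptide pathway, which include the transcription factor gene Irf1, 0 were higher and 5 lower in both exosome groups, against 17.1% of all probes lower in wt and 13.4% in kd exosomes. The median log2 difference of the 7 was −1.97 in wt and −2.71 in kd exosomes, the same with Tap2 at its bound. The peptide transporter gene Tap2 was detected on both untreated arrays and on no exosome array, which puts it at least 7.29-fold lower in wt and at least 7.55-fold lower in kd exosomes (limma adjusted p = 0.00233 and 0.00175). Tapasin, Tapbp, was detected on 1 of 3 wt and 2 of 3 kd exosome arrays (−3.91 and −2.86). The others lower were the chaperones Calr (−1.97 and −2.71) and Pdia3 (−2.42 and −2.71), and the class I light chain B2m (−1.66 and −1.86; limma adjusted p = 8.93e-05 and 4.90e-05). B2m, Calr and Pdia3 remained lower and past the threshold in 12 of 12 alternatives in both comparisons. Tap2 and Tapbp did so in 11 of 11, as the filter for detection on all arrays left them out. Both entered the test only through B12 groups, where they are high. Their direction was thereby favoured from the start, and nothing is read from their calls. The count of 5 lower and the medians include both genes, so these are not read against all probes either. Tap1, the partner of Tap2, differed by −0.19 and −1.02 and did not pass, nor did Irf1 (−0.16 and −0.21). Psmb8 was thus higher, and B2m, Calr and Pdia3, detected on all these arrays, lower on the same arrays.

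Beside the counts of the next lists stand the shares of all tested probes, 18.2% higher and 17.1% lower in wt exosomes, 10.8% higher and 13.4% lower in kd exosomes. With 3 to 7 genes a list, nothing particular to a list can be read from its count. Of 3 genes for factors that assemble the core, 2 were higher in wt exosomes and 1 in kd exosomes: Pomp, the maturation factor, by 1.18 and 0.82, and Psmg1 by 0.58 in wt exosomes. Both turned below 0 under median scaling, Psmg1 also under scaling by the array mean. Of 4 genes for proteins that bind the proteasome, 2 were lower in wt exosomes, Zfand5 by −1.72 ± 0.31 and Txnl1 by −0.69 ± 0.25, and Zfand5 alone in kd exosomes (−1.49 ± 0.31). The next list holds genes of the pathway that induces proteasome genes when proteasomes are short or under oxidative stress. Of its 7 tested genes, 1 was higher and 2 lower in wt exosomes, and 0 higher and 3 lower in kd exosomes. Nfe2l1, also on this list, had no named probe and was not analysed here. The transcription factor gene Nfe2l2 was lower in both (−1.53 and −1.36), as was the deglycosylase gene Ngly1 (−1.16 and −1.08), the protease gene Ddi2, detected on 2 of 3 wt exosome arrays and on no untreated array, was at least 1.35-fold higher in wt exosomes (limma adjusted p = 0.0373) and the small Maf gene Maff, detected on 1 of 3 kd exosome arrays, lower in kd exosomes (−1.35). Zfand5 and Nfe2l2 passed in 12 of 12 alternatives in both comparisons, whereas Ddi2 passed in 4 of 10, Maff in 4 of 11 and Txnl1 in 6 of 12. Of 4 genes for ubiquitin and shuttle factors, 1 was higher in both, Ubqln2 (1.07 and 1.39), which turned below 0 under median scaling.

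Kd and wt exosomes were compared to see whether the CD44v knockdown in the donor cells went with other proteasome messages in their vesicles. On the 6 exosome arrays, normalized by themselves, limma called 0 of 36 tested members (lowest adjusted p = 0.382) and 0% of 8699 probes. At an unadjusted p under 0.05, 3 members were higher and 0 lower, against 5.01% and 8.04% of all probes. These were Psmd11, a lid subunit (0.90 ± 0.31), the alpha subunit Psma2 (0.36 ± 0.15) and the ATPase Psmc1 (1.03 ± 0.44), each with a limma adjusted p of 0.382. Next was Psmb3 at 0.43 ± 0.19 (limma adjusted p = 0.384). Groups did not overlap for 4 members that were higher and 3 that were lower, against 6.43% and 11.5% of all probes. Psmb8, the member farthest from B12 cells, differed between the exosome groups by −0.13 ± 0.13, Psme1 by −0.35 ± 0.17, Psme2 by −0.43 ± 0.25 and Psmb5 by −0.64 ± 0.33.

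The kd arrays did not form 1 group for these genes. For Psmc1, normalized over the exosome arrays, the wt arrays read 10.98, 11.19 and 11.18 and the kd arrays 12.52, 12.87 and 11.05. Kd arrays 1 and 2 were high and kd array 3 was within the wt range. For Psmd11 the wt arrays read 10.33, 10.39 and 10.39 and the kd arrays 11.76, 11.54 and 10.50, again with kd array 3 next to the wt arrays. Measured from the wt mean, Psmd1 was 1.31 and 1.17 higher on kd arrays 1 and 2 and −0.18 on kd array 3, Psmd7 0.88 and 1.18 against −0.29, and Psmb5 −1.11 and −1.01 against 0.19. Kd arrays 1 and 2 deviated to the same side in 33 of 36 members (91.7%), and kd arrays 1, 2 and 3 in 16 (44.4%). Over all 8699 tested probes these shares were 88.7% and 38.4%, so that the members were near the background, and all 3 deviations are measured from the same wt mean. Of the 36, 6 were over 0.5 higher and 3 over 0.5 lower on both kd arrays 1 and 2, against 0 and 1 on kd array 3.

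**Figure D4:**
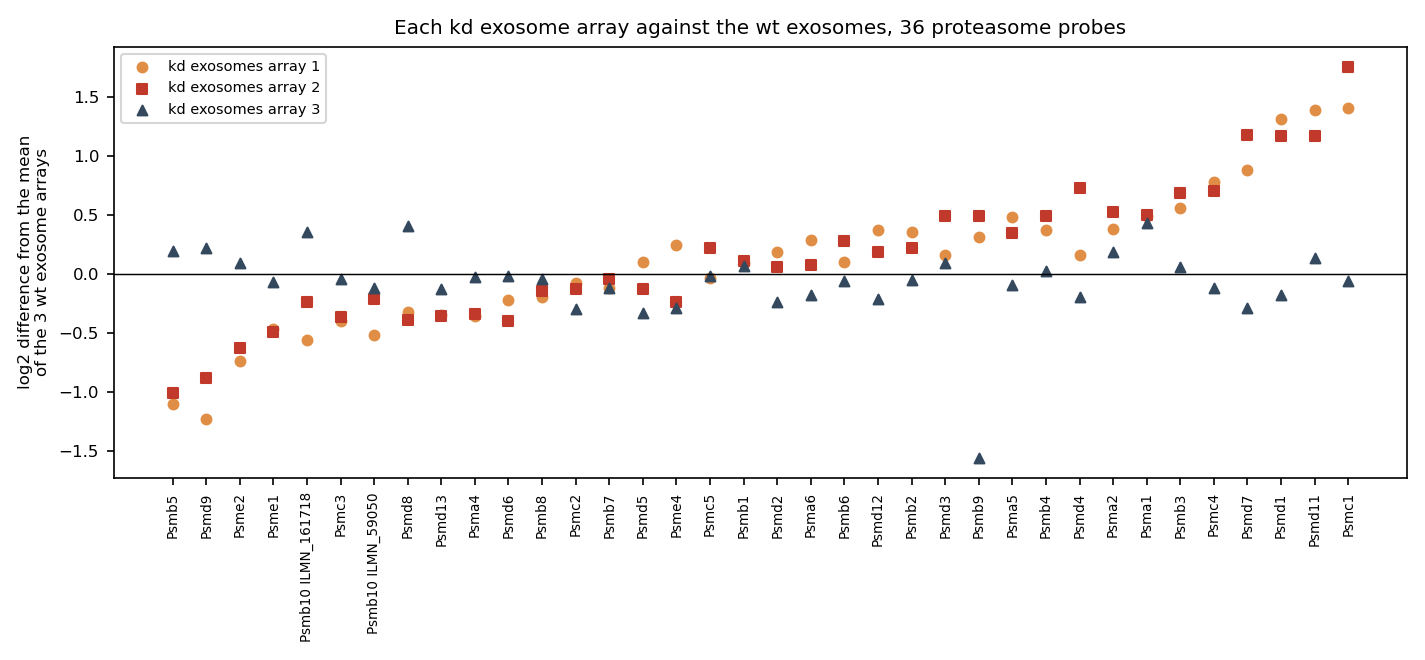
Each of 36 member probes is shown by its log2 difference from the wt exosome mean on kd exosome arrays 1, 2 and 3 (y axis), ordered by arrays 1 and 2. Arrays 1 and 2 lie together, with Psmc1 at 1.40 and 1.76 and Psmb5 at −1.11 and −1.01, while array 3 is within 0.5 of the wt mean except for Psmb9 at −1.56.

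Without kd array 3, limma called 22 of 38 members, 12 higher and 10 lower, and 42.4% of all probes. In that fit Psmc1 was higher by 1.52 (limma adjusted p = 2.64e-05), Psmd11 by 1.25 (limma adjusted p = 1.84e-05), and Psmb5 was lower by −1.04 (limma adjusted p = 3.44e-05). With kd array 3 in, no member passed unless arrays were weighted by how closely they followed their group. Such weights gave 9 higher and 9 lower (48.1% of all probes). Kd arrays 1 and 2 were the brightest exosome arrays and kd array 3 the dimmest, and the summed signal of 4 erythroid and platelet marker probes was 0.00152% and 0.00166% of all signal on kd arrays 1 and 2, 0.189% on kd array 3 and 0.0189% to 0.0840% on the wt arrays. On kd arrays 1, 2 and 3, 2, 2 and 3 of these 4 probes were detected, with Alas2 detected on none. The part of brightness and of these RNAs in the result was not tested.

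The B12 arrays show whether proteasome messages of stroma cells differed after 24 h with exosomes. Compared with untreated cells, limma called 0 of 39 members with wt exosomes and 0 with kd exosomes, and 0 between the treatments, with 0% of 11631 probes called in each. At an unadjusted p under 0.05, the counts of members were 0, 0 and 1, against 2.8%, 2.45% and 1.99% of all probes. The 1 was Psmd14 between the treatments: it was detected on both arrays with wt exosomes and on neither with kd exosomes, at least 1.30-fold lower with kd exosomes (−0.54 ± 0.17 as fitted, limma adjusted p = 1). It entered the test only through the group with wt exosomes, where it is high, so that it had to differ there, and nothing is read from it. The member differences ranged from −0.44 to 0.24 with wt exosomes, from −0.56 to 0.50 with kd exosomes and from −0.54 to 0.42 between the treatments, with medians of −0.02, 0.03 and 0.01. The outermost were Psma1 (−0.44) with wt exosomes, and Psma3 (−0.56) and Psmc3ip (0.50) with kd exosomes.

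Psmb8 was not called in the cells that received exosomes: it differed by −0.20 ± 0.76 with wt and −0.16 ± 0.76 with kd exosomes. Its arrays separate by replicate number, and treated minus untreated was −0.45 with wt and −0.41 with kd exosomes among arrays numbered 1, and 0.05 and 0.09 among those numbered 2. With the number as a term the SE was 0.22 and the limma adjusted p 0.933 and 0.936. Psme1 was measured more closely, at 0.02 ± 0.19 and −0.14 ± 0.19, and Psmb5 at 0.12 ± 0.21 and 0.07 ± 0.21.

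The spread of Psmb8 in B12 cells followed the replicate number, whose meaning the labels do not give. On the B12 arrays normalized by themselves, Psmb8 read 8.23, 7.79 and 7.82 on the arrays numbered 1 and 9.22, 9.28 and 9.31 on those numbered 2. Psmd5 read 5.75, 5.80 and 6.10 against 7.86, 7.60 and 7.52. For both genes every array numbered 2 was above every array numbered 1, whatever the treatment. In a fit of treatment and number, added after seeing the data, 6 of 39 member probes were higher on the arrays numbered 2 and 0 lower, while 9.41% of all probes were higher and 10.2% lower. Without overlap, 11 members were higher and 5 lower, against 18.6% and 20.7% of all probes. The 6 called probes included Psmd5 (1.77 ± 0.21, limma adjusted p = 0.00352) and Psmb8 (1.33 ± 0.18, limma adjusted p = 0.00509). Both probes of Psmb10 were among them (1.04 ± 0.20 and 0.94 ± 0.20, limma adjusted p = 0.0164 and 0.0238). The other called probes were Psma2 (0.50 ± 0.11, limma adjusted p = 0.0276) and Psmd7 (0.57 ± 0.13, limma adjusted p = 0.0331). Psmb9 had 0.70 ± 0.24 and did not pass (limma adjusted p = 0.103). With 1 array left out, 2 to 5 members were higher. Without any one of the 4 treated arrays only Psmd5 and Psmb8 passed, and Psmb10, at 0.72 to 0.96, did not.

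**Figure D5:**
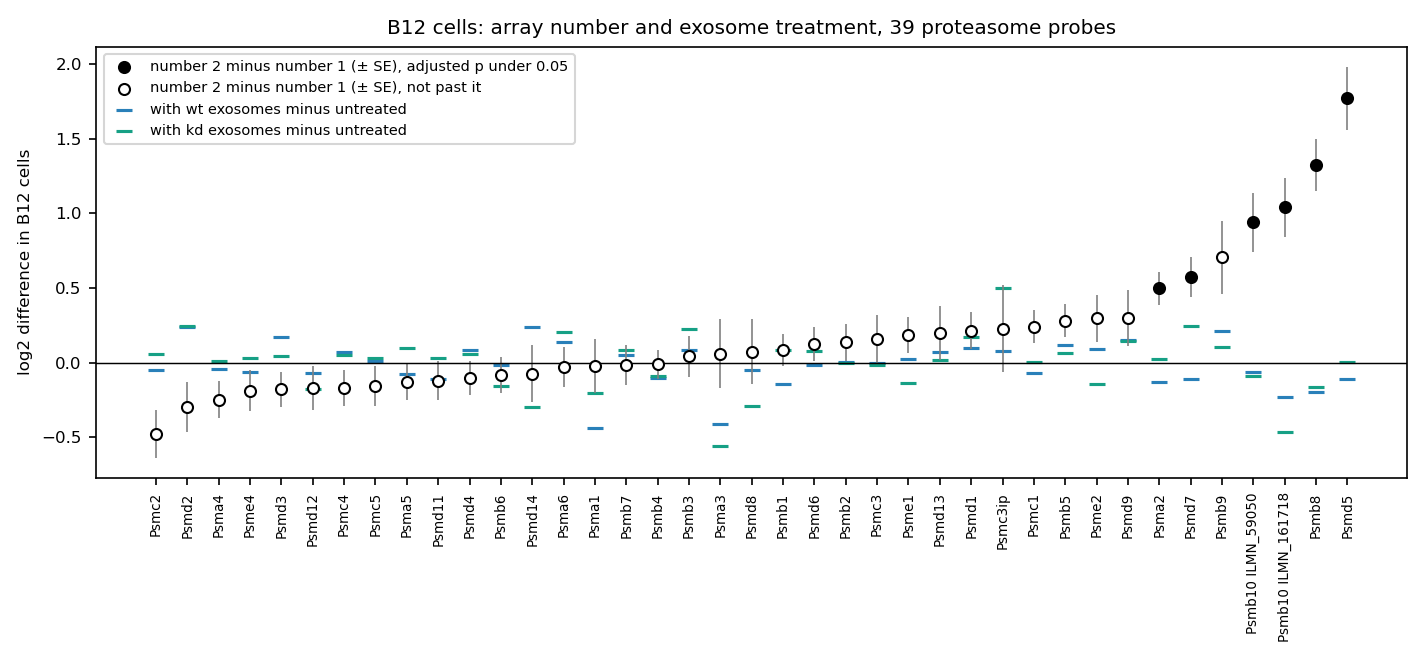
For 39 member probes on the B12 arrays, the log2 difference between replicate numbers (2 minus 1, with its SE) is drawn beside the differences between treatments. Psmd5 at 1.77 and Psmb8 at 1.33 stand out between the numbers, and the treatment differences lie between −0.56 and 0.50.

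Cell type markers moved with the number. The summed signal of 9 epithelial marker probes was 0.502%, 0.317% and 0.287% of all signal on the arrays numbered 1 and 0.0439%, 0.0734% and 0.0301% on those numbered 2, with 6 to 7 and 4 to 5 of the 9 detected and Epcam on none. That of 9 stromal marker probes was 0.180%, 0.229% and 0.218% against 0.630%, 0.657% and 0.687%, with 7 detected on each array and Thy1 on none. Of 4 leukocyte marker probes, 0 to 1 were detected on a B12 array, Ptprc and Cd3e on none. The part of these markers in the difference between the numbers was not tested.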

How the data were processed

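The deposited non-normalized table has columns for intensity (a mean per probe) and for a p-value, as named in the deposited file; no source used here names the software. This deposited p-value was small on both sides of background and was read as two-sided. A probe counted as detected at p under 0.05 with an intensity above background, the median of probes with p above 0.9. Of 23365 rows, 848 without identifier and 571 with repeated identifiers were dropped and 21946 probes used; per the platform annotation 13129 of them had 1 gene symbol, 0 had several and 8817 had none. The authors' deposited normalized intensities, of unstated method, linear and not centred, served as an alternative only; their column medians were 120 to 145.

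Intensities were corrected by a normal-exponential model (offset 16), quantile normalized, taken as log2 and fitted with limma 3.58.1 (R 4.3.3; lmFit, eBayes with trend, two-sided, Benjamini-Hochberg). Exosomes against cells used all 12 arrays (7 residual degrees of freedom), kd against wt the 6 exosome arrays (4) and treatments the 6 B12 arrays (3). A probe was tested if some group detected it on each of its arrays. Where a probe entered only through groups in which it is high, its direction was favoured from the start. Such genes include Tap2, Tapbp, Pf4, Hbb, Epcam, Esrp1 and Itgam. Where a group never detected a probe, its level there is a bound: the bright group's mean log2 was set against the mean, per dim array, of the higher of its own signal and the lowest detected signal, printed as "at least N-fold". The number of arrays limits the precision. The limma fit was tested on simulated log2 values with independent noise. Background correction, normalization and the detection filter were not part of that test. Alternatives were other scalings, background corrections, filters, array weights, a replicate block and leaving out each array.

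Named with values were the catalytic, inducible and activator genes, up to 6 called members per direction and comparison, or the 4 with the smallest p where fewer than 4 passed, members detected in only 1 of the groups compared, and 1 or 2 per subcomplex. The members and the 5 pathway lists were chosen with earlier results of these data known.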

Additional observations from a re-analysis of the deposited data

How the results depend on the processing

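Counts of called members were 14 (wt exosomes against untreated B12), 13 (kd exosomes against untreated B12) and 0 in the other planned comparisons. In wt exosomes the count was 23 with median scaling, 8 with total signal scaling, and 7 (without untreated B12 array 1) to 20 (without kd exosome array 3) when 1 array was left out, with 19.1% and 47.4% of all probes called. In kd exosomes it was 6 with median scaling, 8 with total signal scaling, 22 with array weights (33.7% of all probes) and 10 to 20 with 1 array left out, 20 being without kd array 3 (30.7%). Kd against wt exosomes gave 18 with array weights, 9 in each direction (48.1%), and 0 to 22 with 1 array left out, 22 being without kd array 3. The count by B12 number was 6, or 2 to 6 with 1 array left out, 2 being without any one of the 4 treated arrays. Where a group is left with 1 array, that array is assumed to vary like the other groups.

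Under median scaling 25 of the 27 member probes above 0 in wt exosomes and 29 of 33 in kd exosomes turned below 0, and none turned the other way. For the named members called with quantile or median scaling, the log2 differences in wt exosomes became −1.37 (Psmd13), −0.93 (Psmb1), −0.81 (Psma6), −1.42 (Psmd4), −0.94 (Psmd3), −1.06 (Psmc5), −1.81 (Psmb7), −1.29 (Psmb5), −1.25 (Psmd12), −1.10 (Psmb3), −1.25 (Psmb6), −1.99 and −1.87 (Psmb10), −0.69 (Psmc3), −0.22 (Psmd5) and −1.54 (Psma4). In kd exosomes they became −0.90 (Psmd13), −0.47 (Psmb1), −0.19 (Psma6), −0.52 (Psmd4), −0.15 (Psmd3), −0.25 (Psmc5), −1.26 (Psmb5), −0.46 (Psmd12), −0.17 (Psmb3), −0.48 (Psmb6) and −0.25 (Psmc3). The cause was not tested.

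With a replicate block the counts were 14 and 18 for wt and kd exosomes against untreated B12 and 0 in the other planned comparisons. Arrays of the same number correlated in their deviations from the group means by 0.773 to 0.799 over the B12 groups. With 2 arrays a group these deviations mirror each other, so that the 2 pairs per comparison give 1 value. Over the exosome groups, with 3 arrays each, the correlations were −0.199, 0.455 and 0.323. Whether numbers mark shared material is not given by the labels. Psma3, Psma8, Psmb11, Psmc6 and Psmd14 lay near background on many arrays, which limits what can be read for them.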
